A study of Homo sapiens with 27 samples.

Results

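The 9 genes described here encode transcription factors of the myeloid blood lineage: SPI1, CEBPA, CEBPB, CEBPD, CEBPE, IRF8, GFI1, RUNX1 and MYB. They were taken by symbol, through GENCODE release 44, from 57905 gene identifiers in a table of U937 RNA-seq, and 9 of 9 were matched. U937 is an established human cell line that the study describes as acute myeloid leukemia. It was sequenced as control cells, after 30 min with 0.8 mg/ml matrine and after 24 h with the same dose, with 3 libraries in each group and 9 in all. Matrine is a plant alkaloid, its vehicle in the study was water, and the same controls served both times. The libraries of HL-60 and K562 are not analysed here. How long the controls were cultured and how they were handled is not given in the sources used here. Culture time and handling therefore cannot be told apart from treatment, at 24 h, at 30 min or between the times. All groups come from a single line grown in the same medium, and the labels do not say whether replicates were separate cultures. The p-values therefore measure the spread between these libraries only, which may be technical.

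These factors act in an order that is well described. PU.1, the ETS-family product of SPI1, and RUNX1 open myeloid enhancers in early progenitors, while MYB keeps progenitors dividing. The C/EBP proteins are basic leucine zipper factors that pair with each other: C/EBPα commits cells to granulocytes and monocytes, C/EBPβ serves emergency granulopoiesis and macrophage genes, and C/EBPε acts late in granulocytes. IRF8 favours monocytes, and GFI1 is a zinc finger repressor that favours granulocytes.

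Each library held between 17314931 and 21930018 counted reads, and the largest 10 genes took 4.99% to 5.28% of them. Of 9 markers of myeloid and monocytic cells 6 lay above 1 FPKM (reads scaled to gene length and library size) in every group, among them PTPRC, CD33, CD4 and LYZ. The 9 markers summed to 349 to 363 FPKM in the control, 349 to 378 at 30 min and 331 to 339 at 24 h, and the markers did not move together. LYZ, which made up most of the sum, was lower at 24 h, from 292 to 244 FPKM (edgeR adjusted p = 2.9e-05). PTPRC went from 16.4 to 24.2 FPKM (edgeR adjusted p = 4.4e-07) and CD4 from 28.6 to 43.7 FPKM (edgeR adjusted p = 2.8e-08), both higher by less than 1.5-fold. ITGAM was up-regulated, from 1.28 to 3.15 FPKM (edgeR adjusted p = 3.7e-09). CD33 was at 14.7 and 14.5 FPKM, and FCGR1A at 3.12 and 3.74 FPKM (edgeR adjusted p = 0.16). The part of these differences in the results at 24 h was not tested. CD14, CD68 and CSF1R, which define mature monocytes, were each below 1 FPKM. Of the erythroid markers only KLF1 was above 1 FPKM, with HBG1 and HBB at 0 counts in all libraries. The T cell markers summed to at most 0.2 FPKM in any library and the 4 megakaryocytic markers also to at most 0.2 FPKM. The 5 B lymphoid markers summed to 4.79 to 5.64 FPKM in the control, 4.95 to 5.7 at 30 min and 4.99 to 5.51 at 24 h, with MS4A1 at 0 counts. At 24 h PAX5 was down-regulated, from 1.75 to 0.583 FPKM, and CD79A up-regulated, from 1.49 to 2.58 FPKM, within this sum. In bulk RNA fewer cells of a type and less RNA per cell cannot be told apart.

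A gene was tested when the 6 libraries compared averaged above 1 FPKM. It was called down- or up-regulated when the quasi-likelihood test of edgeR gave an adjusted p below 0.05 and the fold change was at least 1.5 (0.585 on the log2 scale), the thresholds of the study. Of the 9 factors 8 were tested in each comparison. CEBPD, a factor of inflammatory responses, was not: it had between 0 and 4 reads per library and 15 in all 9. A decrease or a small increase in it was thus not detectable at this depth. Its reads summed to 5 in each group. Without the filter its log2 fold change was -0.07 (standard error 1.31) at 30 min and -0.19 (standard error 1.32) at 24 h.

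In short, GFI1 and CEBPB were down-regulated after 30 min of matrine. At 24 h CEBPB overlapped the controls, GFI1 had partly returned, and SPI1, CEBPA, GFI1, RUNX1, MYB and IRF8 were lower than in the control by less than 1.5-fold, a direction in which 31.8% of all genes passed the test, and IRF8 lost it under 7 of 19 alternatives. The 2 called factors and CEBPA, which was lower at both times, are shown first through their promoters, and RefSeq promoters (GRCh38.p14, 250 bases before to 50 bases after a start) were held for 7 of the 9 genes, without SPI1 and CEBPD. They are printed from 5′ to 3′ on the strand of the gene, with matches to the 7 motifs named after them in capitals.
CEBPB, chr20:50190580-50190879, plus strand: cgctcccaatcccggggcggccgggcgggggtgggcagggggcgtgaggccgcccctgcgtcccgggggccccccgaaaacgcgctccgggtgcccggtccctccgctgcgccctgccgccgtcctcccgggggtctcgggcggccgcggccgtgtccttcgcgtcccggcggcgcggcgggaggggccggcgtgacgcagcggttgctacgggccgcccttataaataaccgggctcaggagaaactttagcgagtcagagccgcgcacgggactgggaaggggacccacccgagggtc
GFI1, upstream start, chr1:92486876-92487175, minus strand: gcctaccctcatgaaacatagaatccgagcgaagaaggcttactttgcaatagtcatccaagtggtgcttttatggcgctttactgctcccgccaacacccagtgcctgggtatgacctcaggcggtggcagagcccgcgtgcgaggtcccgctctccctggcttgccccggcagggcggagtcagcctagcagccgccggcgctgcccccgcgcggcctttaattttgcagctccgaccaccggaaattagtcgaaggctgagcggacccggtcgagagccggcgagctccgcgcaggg
GFI1, internal start, chr1:92486050-92486349, minus strand: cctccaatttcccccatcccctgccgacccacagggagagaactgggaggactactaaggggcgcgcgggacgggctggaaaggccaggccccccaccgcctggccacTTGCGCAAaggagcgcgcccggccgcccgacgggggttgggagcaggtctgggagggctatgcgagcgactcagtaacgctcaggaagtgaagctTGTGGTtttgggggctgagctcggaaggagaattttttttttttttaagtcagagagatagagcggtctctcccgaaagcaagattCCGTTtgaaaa
CEBPA, chr19:33302485-33302784, minus strand: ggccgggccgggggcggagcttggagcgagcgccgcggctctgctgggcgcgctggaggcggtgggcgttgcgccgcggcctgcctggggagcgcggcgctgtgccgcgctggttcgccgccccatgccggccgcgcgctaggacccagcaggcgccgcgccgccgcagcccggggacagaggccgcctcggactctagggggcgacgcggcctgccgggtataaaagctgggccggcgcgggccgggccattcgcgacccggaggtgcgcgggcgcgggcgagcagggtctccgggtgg

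Both strands were searched for a C/EBP core (TTGCNNAA), a cyclic AMP response element (TGACGTCA), a PU.1 core (GAGGAA), a RUNX site (TGTGGT), a MYB site (AACGG), a GFI1 core (AAATCA) and an E-box (CACGTG). The internal GFI1 start held a C/EBP core, TTGCGCAA, 142 bases before the start, a RUNX site 47 bases before it and a MYB site on the other strand, at base 40 after it. The C/EBP core reads alike on both strands, and no match overlapped one of another motif. Of 35116 promoters of this length, 10.5% held a C/EBP core, 13.1% a RUNX site and 19.7% a MYB site. The CEBPB, CEBPA and upstream GFI1 windows held none of the 7 motifs, which says only that these letters are not in these windows. The GC content was 76.7% for CEBPB, 80.7% for CEBPA, 63.3% for the upstream and 59.7% for the internal GFI1 window, against a median of 58.7% over all promoters. A promoter each of MYB, CEBPE and RUNX1 and a further GFI1 start held a PU.1 core, present in 27.9% of all promoters. An IRF8 promoter held a RUNX site 134 bases before its start.

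**Figure D1:**
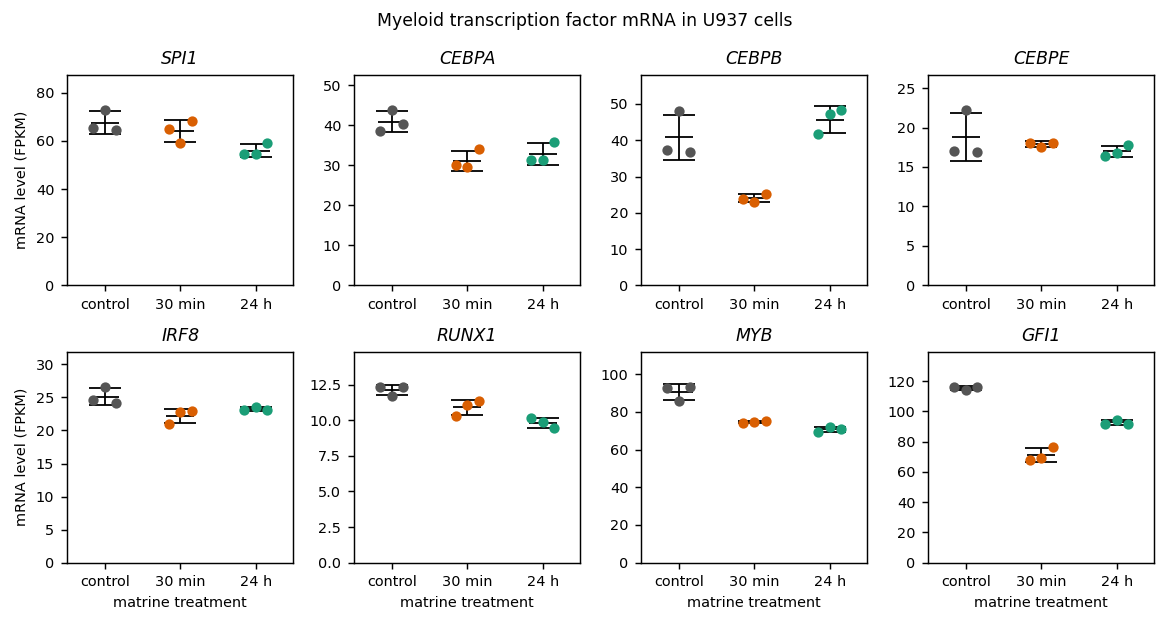
mRNA level in FPKM (vertical axes, from 0, a different range in each panel) of the 8 tested factors in control U937 cells and after 30 min and 24 h of matrine. Points are libraries, and bars are the mean and SD of 3 libraries; GFI1 and CEBPB drop at 30 min, from means of 115 to 70.9 FPKM and from 40.8 to 24.0 FPKM.

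The first question was which factors differed from the control after 30 min. GFI1 (ENSG00000162676, chromosome 1, 92473043 to 92486925 on GRCh38) was at 116, 114 and 116 FPKM in the control libraries and at 67.6, 68.8 and 76.3 FPKM after 30 min. All 3 treated libraries lay far below all 3 controls. GFI1 was down-regulated with a log2 fold change of -0.69 (standard error 0.053, edgeR adjusted p = 3.2e-08), or 1.62-fold. CEBPB (ENSG00000172216, chromosome 20, 50190830 to 50192668) was at 37.4, 48.0 and 36.9 FPKM in the control and at 23.9, 23.0 and 25.1 FPKM after 30 min. Again the groups did not overlap, although control replicate 2 stood above the other controls. CEBPB was down-regulated with a log2 fold change of -0.75 (standard error 0.093, edgeR adjusted p = 3.6e-05), or 1.69-fold. Thus 2 of the 8 tested factors were down-regulated and 0 up-regulated at 30 min. Over all 11587 genes tested, 0.639% were called, 0.544% lower and 0.0949% higher.

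CEBPA and MYB were also lower at 30 min but under the fold change threshold. CEBPA (ENSG00000245848, chromosome 19, 33299934 to 33302534) was at 38.7, 43.9 and 40.2 FPKM in the control and at 30.0, 29.5 and 34.0 FPKM after 30 min. Its log2 fold change was -0.38 (standard error 0.075, edgeR adjusted p = 0.0066), with no overlap between the groups. The adjusted p of CEBPA was 0.051 without replicate 1 of 30 min, and 0.051 without replicate 2. MYB (ENSG00000118513, chromosome 6, 135181308 to 135219173) was at 92.8, 85.9 and 93.2 FPKM in the control and at 74.0, 74.8 and 75.2 FPKM after 30 min. The treated libraries of MYB lay close together and below every control, with a log2 fold change of -0.27 (standard error 0.049, edgeR adjusted p = 0.0038). Without control replicate 1 its adjusted p was 0.073. Counting an adjusted p below 0.05 at any fold change, 4 of the 8 factors were lower, against 1.33% of all genes tested, and 0 were higher, against 0.293%.

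The other 4 tested factors did not pass the test at 30 min. IRF8 (chromosome 16, 85899116 to 85922606) gave a log2 fold change of -0.17 (standard error 0.059, edgeR adjusted p = 0.21) and RUNX1 (chromosome 21, 34787801 to 36004667) one of -0.14 (standard error 0.054, edgeR adjusted p = 0.27). For both, every treated library was below every control in FPKM, as was so for 6 of the 8 factors and for 8.91% of all genes, while 0 factors and 4.89% of all genes had every treated library higher. SPI1 (chromosome 11, 47354860 to 47378547) was at 65.1, 59.0 and 68.3 FPKM after 30 min against 65.2, 73.0 and 64.7 FPKM in the control, and these ranges overlapped (log2 fold change -0.06, standard error 0.068). CEBPE (chromosome 14, 23117036 to 23120256) was at 17.5 to 18.1 FPKM after 30 min and 16.9 to 22.3 FPKM in the control, with a log2 fold change of -0.06 and a standard error of 0.099. The sign was not stable for SPI1 or CEBPE when single libraries were left out. With 3 libraries against 3, the 2-sided exact permutation test can give no p below 0.1, and it gave 0.1 for GFI1, CEBPB, CEBPA, MYB, IRF8 and RUNX1.

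**Figure D2:**
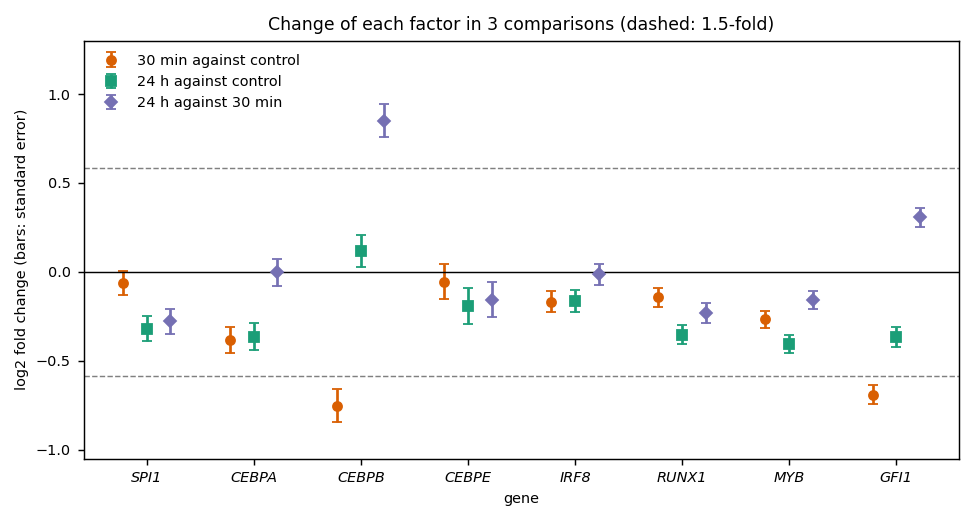
Log2 fold change (vertical axis) of each tested factor at 30 min against control, at 24 h against control and at 24 h against 30 min, with standard errors from edgeR; dashed lines mark a 1.5-fold change. At 30 min CEBPB (-0.75) and GFI1 (-0.69) are beyond the lower line, at 24 h no factor is beyond a line, and between the times CEBPB is beyond the upper line at 0.85.

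After 24 h, 0 of the 8 tested factors were down- or up-regulated at a fold change of at least 1.5, whereas 26.3% of the 12035 genes tested were called, 11.2% lower and 15.1% higher. With an adjusted p below 0.05 at any fold change, edgeR gave 6 factors lower and 0 higher, against 31.8% of all genes lower and 31.5% higher; the same 6 had unadjusted p values below 0.05 and no overlap with the controls, which 31.0% of all genes showed in the lower direction. DESeq2 also called 0 of the 8. The median log2 fold change of the 8 factors was -0.34, and that of all genes tested was 0.008. MYB had the lowest value, at 69.4, 72.0 and 70.9 FPKM after 24 h, all under the controls (log2 fold change -0.40, standard error 0.050, edgeR adjusted p = 4.5e-07). The exons of MYB overlap those of its antisense gene MYB-AS1 by 103 bases, and MYB-AS1 had a mean of 1.42 FPKM. Those of CEBPB overlap its antisense gene CEBPB-AS1 by 231 bases, and CEBPB-AS1 was not among the genes counted. Antisense genes that overlap the exon of CEBPA by 659 and 482 bases had means of 0 FPKM. The part of antisense reads in these levels was not tested.

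GFI1 was at 91.7, 94.5 and 91.6 FPKM after 24 h, between the 30 min libraries and the controls and overlapping neither (log2 fold change against control -0.37, standard error 0.054, edgeR adjusted p = 5.7e-06). CEBPA was at 31.4, 31.3 and 36.0 FPKM, below every control and overlapping the 30 min libraries (log2 fold change -0.36, standard error 0.076, edgeR adjusted p = 0.00028). RUNX1 was at 10.2, 9.87 and 9.45 FPKM after 24 h, against 12.4, 11.8 and 12.3 FPKM in the control. No treated library of RUNX1 reached a control (log2 fold change -0.35, standard error 0.055, edgeR adjusted p = 1.1e-05). SPI1 was at 54.4, 54.5 and 59.0 FPKM after 24 h, below every control and every 30 min library (log2 fold change -0.32, standard error 0.070, edgeR adjusted p = 0.00046). PU.1 is dose-sensitive in blood cells, but the table holds mRNA and no protein.

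For IRF8 the 24 h libraries were at 23.0 to 23.6 FPKM and the controls at 24.2 to 26.6 FPKM (log2 fold change -0.16, standard error 0.061, edgeR adjusted p = 0.024). Under 7 of 19 alternatives the adjusted p of IRF8 was 0.05 or higher, up to 0.10. CEBPE overlapped its controls at 16.4 to 17.8 FPKM (log2 fold change -0.19, standard error 0.10, edgeR adjusted p = 0.10). The edgeR adjusted p of CEBPE was 0.02 without the filter and 0.036 with DESeq2 size factors. It was 0.041 and 0.038 without control replicates 1 and 3, and 0.05 or higher under the other alternatives. CEBPB was the exception in direction, at 41.6, 47.1 and 48.4 FPKM after 24 h. These libraries overlapped the controls, and the log2 fold change was 0.12 (standard error 0.091, edgeR adjusted p = 0.28). Without control replicate 2, which had the highest CEBPB level of the controls, it was 0.24 with an adjusted p of 0.0093 from edgeR, still under the fold change threshold.

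The comparison of 24 h with 30 min tests whether the differences from the control at both times differ, since their controls are shared. Any difference in culture time enters it too. CEBPB was up-regulated between the times, with a log2 fold change of 0.85 (standard error 0.094, edgeR adjusted p = 8.8e-08), or 1.80-fold, and every 24 h library lay above every 30 min library. It was the 1 factor of 8 called, where 26.9% of the 11981 genes tested were called, 15.4% higher and 11.5% lower. GFI1 was also higher at 24 h than at 30 min, by 0.31 on the log2 scale (standard error 0.054, edgeR adjusted p = 4.9e-05), under the fold change threshold. SPI1 (-0.28, standard error 0.070, edgeR adjusted p = 0.0017), RUNX1 (-0.23, standard error 0.055, edgeR adjusted p = 0.0010) and MYB (-0.16, standard error 0.050, edgeR adjusted p = 0.0088) were lower at 24 h than at 30 min. With an adjusted p below 0.05 at any fold, 3 factors were thus lower and 2 higher, against 32.6% and 32.5% of all genes. The libraries of both times did not overlap for 3 factors lower and 3 higher at 24 h, against 28.6% and 39.9% of all genes. For MYB the adjusted p was 0.05 or higher under 5 of 19 alternatives and reached 0.17 when scaled by library totals alone. CEBPA (0.00, standard error 0.076) and IRF8 (-0.01, standard error 0.060) did not pass the test, and all 24 h libraries of IRF8 were above those of 30 min in FPKM although the TMM-scaled difference was close to 0.

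The order of levels per gene length shifted with treatment. In the control it was GFI1 (115 ± 1.11 FPKM, SD, n = 3), MYB (90.6 ± 4.11), SPI1 (67.6 ± 4.62), CEBPA (41.0 ± 2.70), CEBPB (40.8 ± 6.29), IRF8 (25.1 ± 1.29), CEBPE (18.7 ± 3.05), RUNX1 (12.1 ± 0.341) and CEBPD (0.040 ± 0.046). CEBPA and CEBPB were the only neighbours whose ranges overlapped. At 30 min MYB, GFI1 and SPI1 came first, at 74.7 ± 0.598, 70.9 ± 4.7 and 64.2 ± 4.71 FPKM (SD, n = 3), and MYB overlapped GFI1 and GFI1 overlapped SPI1. At 24 h GFI1 led again at 92.6 ± 1.66 FPKM (SD, n = 3), no neighbours overlapped, and CEBPB (45.7 ± 3.61) stood above CEBPA (32.9 ± 2.69).

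The balance of CEBPA to CEBPB therefore turned over, a ratio chosen after the values were seen and given as a description. The ratio of their FPKM was 1.03, 0.915 and 1.09 in the control, 1.26, 1.29 and 1.35 at 30 min and 0.753, 0.664 and 0.743 at 24 h, so that no group overlapped another. The summed FPKM of CEBPA, CEBPB, CEBPD, CEBPE, CEBPG and DDIT3 was 133 ± 11.8 in the control, 106 ± 2.45 at 30 min and 161 ± 6.52 at 24 h (SD, n = 3 each). DDIT3, also called CHOP, encodes a C/EBP relative of the stress response that pairs with other C/EBP proteins. It made up 4.68% ± 0.294 of that sum in the control, 7.57% ± 0.671 at 30 min and 20.6% ± 1.29 at 24 h, while CEBPA went from 30.9% ± 1.02 to 29.3% ± 1.62 and 20.4% ± 1.16 (SD, n = 3 each). CEBPB made up 30.6% ± 1.91, 22.6% ± 0.629 and 28.4% ± 1.15. At 24 h the shares of DDIT3 and CEBPA in the family sum thus overlapped.

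**Figure D3:**
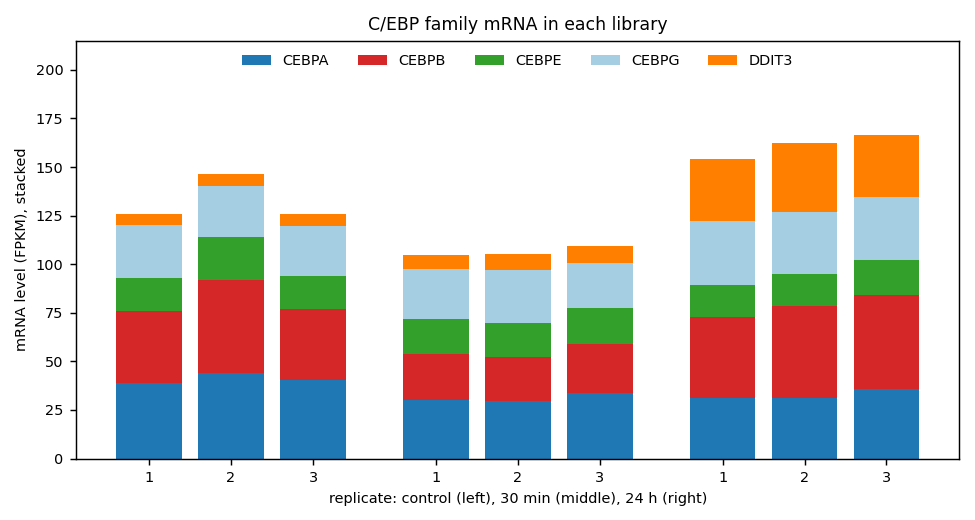
Stacked mRNA levels in FPKM (vertical axis, from 0) of CEBPA, CEBPB, CEBPE, CEBPG and DDIT3 in each library, by replicate within control, 30 min and 24 h. The CEBPB segment is smaller in the 3 libraries of 30 min, with a mean of 24.0 FPKM, and the DDIT3 segment is larger in those of 24 h, with a mean of 33.2 FPKM.

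Relatives and partners of the factors formed a list of 19 genes, of which 13 were tested at 24 h. The list had 6 up-regulated genes, IRF1, IRF2, IRF5, IRF7, DDIT3 and MYBL1, 1 was down-regulated, CEBPZ, and 6 were not called, a share of 53.8% called against 26.3% of all genes. The median log2 fold change of the list was 0.36. DDIT3 rose from 6.20 ± 0.222 to 33.2 ± 2.19 FPKM (SD, n = 3; log2 fold change 2.37, standard error 0.10). IRF7, a factor of the interferon response, rose from 1.85 ± 0.232 to 9.21 ± 0.942 FPKM (log2 fold change 2.27, standard error 0.14), and IRF1, another, from 1.96 ± 0.066 to 3.84 ± 0.135 FPKM (log2 fold change 0.92, standard error 0.11). CEBPZ, which acts in ribosome assembly in spite of its name, fell from 40.0 ± 1.5 to 22.8 ± 0.593 FPKM (log2 fold change -0.86, standard error 0.075). CBFB, the partner that RUNX proteins need to bind DNA, was at 27.8 to 28.8 FPKM at 24 h and 28.8 to 32.6 FPKM in the control and was not called. GFI1B, the close relative of GFI1 in red cells and platelets, had 1 read in all 9 libraries. At 30 min 0 of the 12 tested relatives and partners were called, where 0.639% of all genes were.

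Cofactors numbered 11, all tested, and 2 were down-regulated at 24 h, 18.2% against 26.3% of all genes, with a median of -0.10. HDAC2, a histone deacetylase of repressor complexes, fell from 16.7 ± 0.140 to 10.4 ± 0.398 FPKM (SD, n = 3; log2 fold change -0.73, standard error 0.063). TRIB2, a pseudokinase that targets C/EBPα protein for degradation, fell from 6.27 ± 0.415 to 3.99 ± 0.315 FPKM (log2 fold change -0.70, standard error 0.086). KDM1A, the demethylase that GFI1 recruits, had a log2 fold change of -0.58, or 1.49-fold lower, and was just under the threshold; DESeq2 called it. At 30 min 0 of the 11 were called, where 0.639% of all genes were.

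Among 18 other regulators of blood cells, 12 were tested at 30 min and 1 was down-regulated, EGR1, an immediate early factor of monocytes. Of all genes tested, 0.544% were down-regulated at 30 min. EGR1 was at 6.55 ± 0.913 FPKM in the control, 1.5 ± 0.151 at 30 min and 5.41 ± 0.240 at 24 h (SD, n = 3 each), with a log2 fold change of -2.12 at 30 min (standard error 0.13, edgeR adjusted p = 7.7e-10). Like CEBPB and GFI1 it was higher at 24 h than at 30 min, by 1.77 on the log2 scale (standard error 0.13, edgeR adjusted p = 1.7e-10). At 24 h 13 were tested, of which 3 were up-regulated and 1 was down-regulated, or 30.8% against 26.3% of all genes, with a median of -0.06. MEIS1 and HOXA9, partners in leukemic self-renewal, rose from 4.02 ± 0.076 to 9.37 ± 0.686 FPKM and from 25.0 ± 0.992 to 39.7 ± 0.583 FPKM (SD, n = 3; log2 fold changes 1.17 and 0.62, standard errors 0.068 and 0.067). ERG, an ETS-family factor of blood stem cells, fell from 1.23 ± 0.085 to 0.803 ± 0.085 FPKM. ERG was above 1 FPKM in the control alone and was tested through it. It was not called by limma. When any control was left out, the mean of ERG fell under 1 FPKM and it was not tested. The HOXA9 call was lost without the filter on low values and with DESeq2 size factors, where IKZF1 was called instead.

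**Figure D4:**
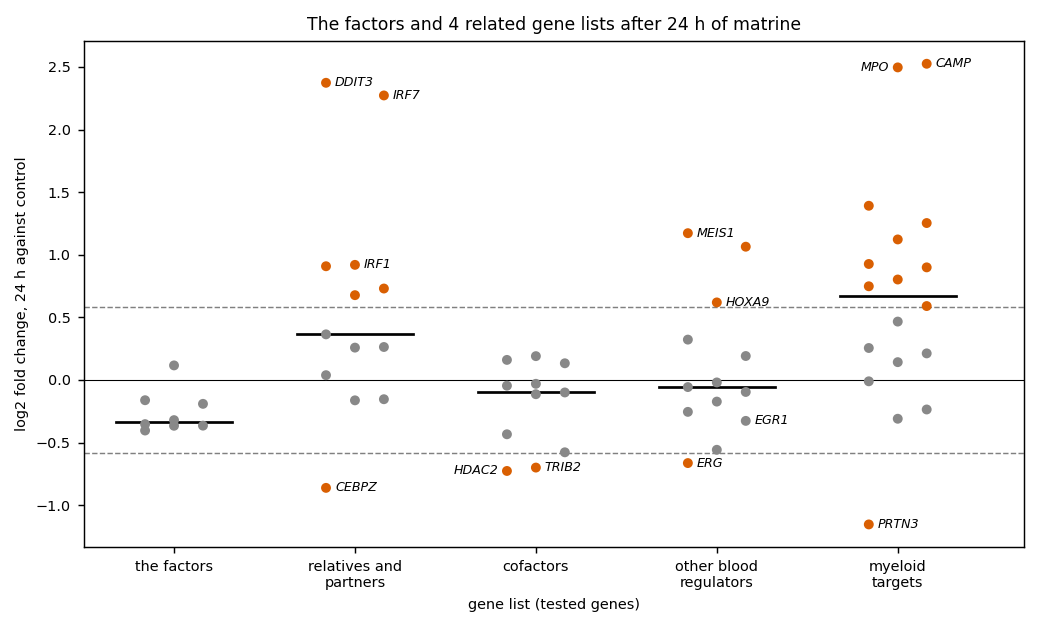
Log2 fold change at 24 h against control (vertical axis) of every tested gene among the factors and 4 related lists, with called genes in orange, the others in grey, list medians as black bars and a 1.5-fold change as dashed lines. All 8 tested factors lie between the dashed lines, with a median of -0.34. Of the 16 myeloid targets above 1 FPKM in both groups 8 are called higher, against 15.1% of all genes tested. That share is not limited to genes above 1 FPKM in both groups.

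Genes that these factors are known to regulate in myeloid cells formed a list of 25, of which 18 were tested at 24 h. The test called 10 of them up-regulated and 1 down-regulated, 61.1% against 26.3% of all genes, with a median log2 fold change of 0.67 against 0.008. CAMP and MPO were above 1 FPKM in the 24 h libraries alone and were tested through them. Of the 16 targets above 1 FPKM in both groups, 8 were up-regulated and 1 down-regulated, with a median of 0.53. CAMP, an antimicrobial peptide of late granulocytes, rose from 0.523 ± 0.201 to 3.23 ± 0.248 FPKM (SD, n = 3; log2 fold change 2.52, standard error 0.32). MPO, the peroxidase of azurophil granules, rose from 0.313 ± 0.117 to 1.84 ± 0.154 FPKM (log2 fold change 2.5, standard error 0.24). Also up-regulated were CSF3R, CSF2RA, ITGAM, ITGB2, NCF1, AZU1 and ELANE, of which NCF1 has near-identical pseudogenes that can share its reads. ELANE was at the threshold (1.5-fold) and was not called by DESeq2, with DESeq2 size factors, without the filter, with a mean above 1 FPKM in either group, or without replicate 1 or 3 of the control, replicate 1 of 30 min or replicate 3 of 24 h. When any 24 h library was left out, the mean of MPO fell under 1 FPKM and it was not tested.

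PRTN3, an azurophil granule protease, was the target down-regulated at 24 h, from 594, 741 and 604 FPKM in the control to 297, 298 and 306 FPKM (log2 fold change -1.15, standard error 0.075). AZU1, a related granule protein, was up-regulated. At 30 min 0 of the 16 tested targets were called, where 0.639% of all genes were, and their median log2 fold change was 0.05. The 7 targets not tested at 24 h included CSF1R, CD14, CD68, LTF, MMP8, KIT and CD34.

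The genes whose pattern over the 9 libraries was closest to each factor were found by the root mean square difference of log2 CPM, each gene taken relative to the mean of its controls. For GFI1 this was CITED2, a transcriptional coregulator, at 0.105. CITED2 had log2 fold changes of -0.72 at 30 min, -0.21 at 24 h and 0.49 between the times. For CEBPB it was MIR23AHG, a microRNA host gene, at 0.13, with log2 fold changes of -0.84, -0.02 and 0.80. The values were 0.07 for CEBPA with PIM3, 0.031 for SPI1 with ESRRA, 0.031 for CEBPE with LAGE3, 0.051 for IRF8 with DDX19B, 0.04 for RUNX1 with WDR73 and 0.04 for MYB with ANKRD46. Within the factors RUNX1 and MYB were the closest pair, at 0.09. The 9 libraries share their groups and scaling, so closeness here is a description of these libraries.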

How the data were processed

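RNA-seq counts of 9 U937 libraries (3 control, 3 after 30 min and 3 after 24 h of matrine) were analysed, and the totals per library are given in the report. The authors trimmed reads (cutadapt 1.9.1, per the submitters' processing notes), mapped them with HISAT2 2.0.1, counted them per gene with HTSeq 0.6.1, and deposited the raw counts and FPKM of each gene. The paper's methods name hg38 and the processing notes GRCh37; the coordinates printed are those of GENCODE release 44 on GRCh38 and were used for identity only. The annotation release and strand setting are not given in the sources used here, so overlapping and near-identical genes carry a limit. Of 57905 identifiers 51996 were matched to a symbol.

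Counts were tested with edgeR 4.0.16 (R 4.3.3; TMM, quasi-likelihood test, 1 fit of the 9 libraries per comparison, Benjamini-Hochberg adjustment over all genes tested). FPKM served for the filter on low values (mean above 1) and for levels. Each standard error was taken as the fold change on the log2 scale divided by the square root of edgeR's F. The fit was first checked on simulated counts. limma 3.58.1 and DESeq2 1.42.0 were alternatives, next to other filters, scalings, pseudocounts of 0.1 and 1, fold changes of 1.2 and 2, a replicate block, the 6 libraries compared and each library left out. All factors are named. From each related list the 3 largest increases and decreases called at 24 h and every gene called at 30 min are named, except some genes not reported here, and other genes were named after their values were seen. Counts over a list cover all of its genes. The factors, lists and tests were chosen with earlier results of these data known. Replicates of each group differed by more than sampling noise (chi-square per degree of freedom 2.14 to 11.9).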

Additional observations from a re-analysis of the deposited data

Results flagged for a closer look

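The effects at 24 h and at 30 min differed, in edgeR's test of 24 h against 30 min and by at least 1.5-fold, for 1 factor and for the genes of the related lists given here. The differences on the log2 scale, 24 h minus 30 min, follow. For CEBPB it was 0.85, the direction opposite to its change at 30 min. EGR1, also down-regulated at 30 min, had 1.77. Among relatives of the factors it was 1.96 for DDIT3, 2.10 for IRF7, 1.18 for IRF1, 0.91 for IRF2, 0.77 for IRF5, 1.00 for MYBL1 and -0.83 for CEBPZ. Among cofactors it was -0.71 for HDAC2, -0.71 for TRIB2, -0.61 for KDM1A and -0.79 for TRIB1. Among other blood regulators it was 1.03 for MEIS1 and 0.85 for HOXA9. Among the targets it was 1.94 for CAMP, 2.14 for MPO, 1.04 for CSF3R, 0.78 for CSF2RA, 1.24 for ITGAM, 0.84 for ITGB2, 0.95 for NCF1, 0.65 for AZU1 and -1.22 for PRTN3. CAMP, MPO and MYBL1 were below 1 FPKM at 30 min, with means of 0.787, 0.39 and 0.887 FPKM. They were above it at 24 h and were tested through those libraries. The related lists were chosen with earlier results known, and 26.9% of all genes tested were called in the comparison of 24 h with 30 min.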

How the results depend on the processing

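GFI1 and CEBPB were called lower at 30 min, and CEBPB higher at 24 h than at 30 min, under every filter, scaling, tool, pseudocount, block and left-out library tried; their log2 fold changes at 30 min ranged from -0.74 to -0.64 and from -0.82 to -0.61. The fold change threshold moved the counts by construction. At 1.2-fold 4 factors were called at 30 min, 5 at 24 h and 3 between the times. At 2-fold the numbers were 0 at 30 min and 0 between the times. The shares of all genes called at 1.2-fold and 2-fold, or under other filters and tools, were not taken, so counts there have no background. With an adjusted p below 0.05 from edgeR at any fold, 1.62% of all genes passed at 30 min, 63.3% at 24 h and 65.1% between the times. For relatives and partners 4 were called with a mean FPKM above 5 and 2 at 2-fold; for cofactors 1 with limma and a pseudocount of 1, 4 at 1.2-fold and 0 at 2-fold; for other blood regulators 2 with a mean FPKM above 5, 7 at 1.2-fold and 2 at 2-fold; for targets 7 with a mean FPKM above 5 and 6 at 2-fold. The genes lost with a mean FPKM above 5, such as IRF1, IRF2 and MYBL1, were under that filter and not tested. Leaving out libraries gave 2 to 3 cofactors, 3 to 4 other regulators and 9 to 11 targets. ERG and MPO were lost there through the filter of 1 FPKM.

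Values near 0 changed sign. Leaving out 1 library at a time, SPI1 at 30 min reached down to -0.106, CEBPE at 30 min to -0.125, and between the times CEBPA to -0.067 and IRF8 to -0.053. SPI1 at 30 min was 0.001 without control replicate 2 and 0.019 without replicate 2 of 30 min, and CEBPE at 30 min was 0.096 without control replicate 2. Between the times CEBPA was 0.074 with a mean FPKM above 5, 0.077 with library totals alone, 0.076 and 0.074 with limma and pseudocounts of 0.1 and 1, and from 0.006 to 0.058 in the leave-outs that turned it; IRF8 was 0.062, 0.065, 0.066 and 0.063 in the same order, and 0.003 and 0.000 without replicate 3 of 30 min and replicate 1 of 24 h. The cause was not tested. Scalings moved the median of all genes by at most 0.081.

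Same-numbered libraries did not deviate together (correlations from -0.224 to 0.124 over 9 pairs, 1 above 0.1), so the numbers were not taken to pair libraries. With a replicate block 2 factors were called at 30 min, 0 at 24 h and 1 between the times, and 0 of 31 results changed their call or direction.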
